A study of Mus musculus with 4 samples.

Results

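Fenestrated endothelial cells (ECs) made up 703 of the 14350 ECs in the dataset (4.90%) and 3.91% of the 17999 cells that passed the quality filters. They were picked by their transcripts. A cell had to show more than 500 detected genes and less than 10% mitochondrial unique molecular identifiers (UMIs, each counting 1 captured transcript). It also had to show at least 3 of the 5 endothelial genes *Flt1*, *Pecam1*, *Cdh5*, *Kdr* and *Tie1*, at least 2 UMIs of *Plvap*, at least 2 of the 4 genes *Gpihbp1*, *Rbp7*, *Cd24a* and *Plpp3*, and fewer than 3 UMIs in all of *Pdgfrb*, *Vtn*, *Acta2* and *C1qb*, genes of mural cells and microglia. They were set against 13430 ECs of the same mice with 0 *Plvap* UMIs (*Plvap*-0 ECs). A further 196 ECs with 1 *Plvap* UMI, and 21 with 2 or more but with too few of the 4 companion genes, were in neither class.

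The cells came from the cerebrum of 3-month-old mice, 2 *Angpt2*-WT (WT1 and WT2) and 2 *Angpt2*-KO (KO1 and KO2), and each library was taken as 1 mouse. Vascular fragments were pulled out with PECAM1-coated beads, dissociated, and sequenced with the 10x Genomics 3′ kit. The *Angpt2*-KO mice lack exon 4 of *Angpt2* in all cells from early development, since the floxed allele was recombined with *Pgk*-Cre, and the *Angpt2*-WT mice were their littermates on the same C57BL6/J background. WT1 and KO1 were labelled female, WT2 and KO2 male, so sex was balanced between the genotypes. The dissociation kept no record of where in the brain a cell had been, and with 2 mice per genotype all p-values measure the spread between these mice.

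Most brain capillaries are sealed by tight junctions and carry a dense set of solute carriers, the blood-brain barrier (BBB), which is kept up by Wnt/β-catenin signaling in the ECs. Capillaries of the choroid plexus and the circumventricular organs are different. They have fenestrae, small pores through the cell body that are bridged by diaphragms of the protein PLVAP, let plasma solutes out, and are known to depend on VEGF signaling. ANGPT2 is a ligand of the receptor TIE2 that usually counters ANGPT1.

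The genes that chose the cells are given as levels only, since the rule fixed their direction or took part in it. *Plvap* (chr8:71497765-71511752, minus strand, GRCm38) had a median of 22, 21, 25.5 and 14 UMIs per fenestrated cell in WT1, WT2, KO1 and KO2, the order in which values of the 4 mice are given throughout. *Gpihbp1*, which carries lipoprotein lipase to the capillary lumen, had a UMI in 81.0, 84.9, 90.5 and 82.0% of fenestrated cells and in 0.548, 0.816, 0.685 and 0.748% of *Plvap*-0 ECs. *Kdr*, the main VEGF receptor, stood at 3609, 2825, 3788 and 3783 CPM (counts scaled to a common library total) in fenestrated cells and at 721, 665, 1009 and 1005 CPM in *Plvap*-0 ECs. All 3 genes belong to the rule, so their levels describe the cells and are no check of the label.

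Fenestrated cells had more UMIs and detected genes than *Plvap*-0 ECs. The rule asks for UMIs of *Plvap* and its companion genes, which deeper cells meet more easily. How much of the difference came from the rule was not tested. Their median UMI count was 8152, 7733, 9612.5 and 5016, against 5590, 4723.5, 7660 and 4088, and their median number of detected genes was 2844, 2898, 3279 and 2213, against 2265, 2115, 2879 and 1868. The mitochondrial share was lower, at medians of 2.72, 2.48, 1.87 and 1.95% against 3.69, 3.65, 2.48 and 2.96%. The UMIs summed over fenestrated cells came to 1129281, 2823433, 1692898 and 1215895, and over *Plvap*-0 ECs to 25861194, 32767661, 22370875 and 21379062. Any 2 libraries shared between 1 and 16 cell barcodes.

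The share of fenestrated cells among ECs did not separate the genotypes. It was 3.23% in WT1 (105 of 3248 ECs, exact binomial 95% confidence interval 2.65 to 3.90), 6.37% in WT2 (305 of 4786, 5.70 to 7.10), 5.70% in KO1 (126 of 2212, 4.77 to 6.74) and 4.07% in KO2 (167 of 4104, 3.49 to 4.72), where the intervals cover counting error only. Both *Angpt2*-KO mice lay between the 2 *Angpt2*-WT mice, which differed 1.97-fold from each other. The mean was 4.80% ± 2.22 (SD, n = 2) in *Angpt2*-WT and 4.88% ± 1.15 (SD, n = 2) in *Angpt2*-KO mice, and the difference of 0.0799 percentage points gave p = 1 in a two-sided exact permutation test, whose smallest possible p with 2 mice against 2 is 0.33. After each cell was thinned to 2000 UMIs the shares were 3.28, 6.81, 5.45 and 3.85%. How far the dissection and the bead capture set these shares was not tested.

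**Figure D1:**
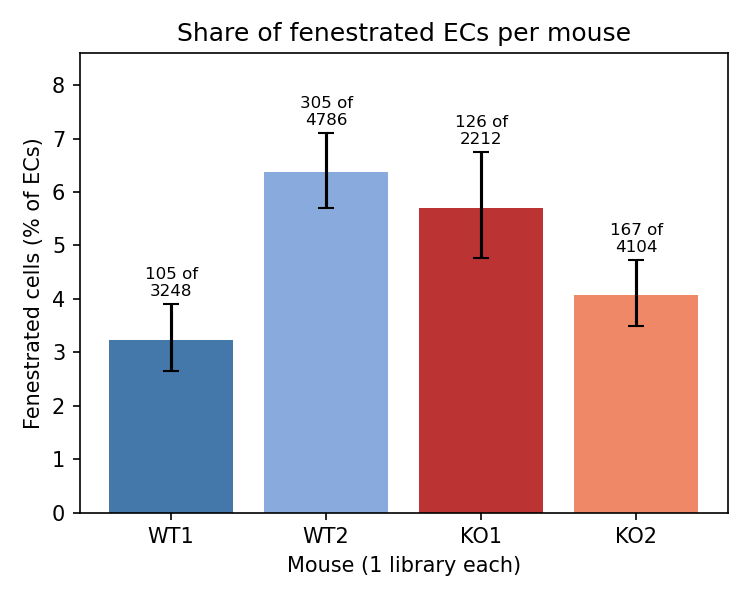
Fenestrated cells as a percentage of the ECs of each mouse (bars, 1 library per mouse, with the number of cells above) and their exact binomial 95% confidence intervals (lines). WT1 had the lowest share, 3.23%, and WT2 the highest, 6.37%, with both *Angpt2*-KO mice between them.

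Fenestrated cells carried a far smaller load of BBB transporter transcripts than *Plvap*-0 ECs, and none of those transporters was used to choose them. The 24 genes of the BBB transporter list together made up a median of 0.307, 0.347, 0.309 and 0.329% of a fenestrated cell's UMIs, and of 2.85, 3.23, 3.12 and 3.13% of a *Plvap*-0 EC's UMIs. The distributions did touch. In all, 57 fenestrated cells (8.11%) reached the 5th percentile of the *Plvap*-0 ECs of their own mouse, at 2, 18, 21 and 16 cells per mouse (1.90, 5.9, 16.7 and 9.58%). That percentile lay at 1.59, 1.81, 1.30 and 1.54% of UMIs, lowest in KO1, so the counts do not share a common cut. The 95th percentile of fenestrated cells was 1.15, 2.02, 1.67 and 1.89%, higher in WT2 than in KO1. These 57 cells, grouped after the values were seen and so given without a test, are called barrier-range cells below. The transporter list also holds *Bsg*, *Spock2*, *Slc9a3r2*, *Tfrc* and *Lrp8*, which are not transporters themselves. In *Plvap*-0 ECs *Bsg* alone gave 10025, 13403, 10688 and 10951 of the list's 28317, 30716, 29172.5 and 30180 CPM. In fenestrated cells it gave 681, 2554, 864 and 1290 of 4083, 7467.5, 4255 and 5488 CPM, so the load and the cut rest in part on *Bsg*.

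**Figure D2:**
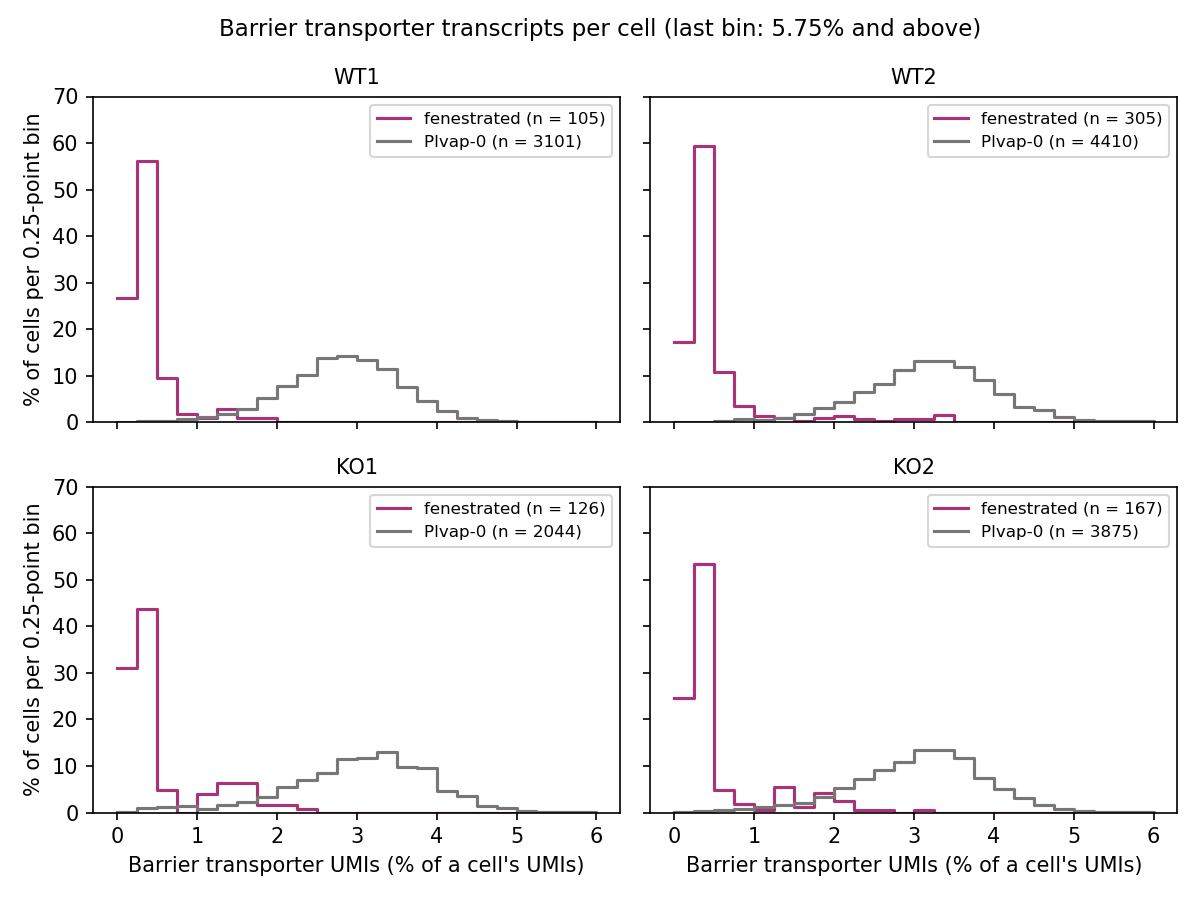
Percentage of cells (y axis, in bins of 0.25 points) by the percentage of a cell's UMIs that came from the 24 genes of the BBB transporter list (x axis), for fenestrated cells and *Plvap*-0 ECs of each mouse. Fenestrated cells peaked below 0.5%, with a small second group in the range of the *Plvap*-0 ECs of the same mouse. That group held 21 of 126 cells in KO1 and 2 of 105 in WT1, at cuts of 1.30 and 1.59%.

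Barrier-range cells differed from the other fenestrated cells in more than transporters. *Plvap* stood at 136, 836, 1096 and 1734 CPM in them, against 3317, 3193, 3613 and 3066 CPM in the rest. *Cldn5*, the main claudin of the BBB tight junction, stood at 3695, 5072, 2518 and 2296 CPM, against 77.8, 205, 243 and 408 CPM. *Rgs5*, a pericyte gene, was not higher in them in every mouse, at 0, 35.2, 2313 and 108 CPM against 49.4, 37.5, 42.9 and 84.8 CPM. In KO1 the barrier-range cells held 306 of the 373 *Rgs5* UMIs in the fenestrated cells of that mouse. Their median UMI count was higher than that of the other fenestrated cells in the *Angpt2*-WT mice (18403.5 and 18040.5 against 8152 and 7305) and lower in the *Angpt2*-KO mice (4423 and 3992 against 11283 and 5181). The *Angpt2*-KO mice held 21 and 16 of the 57 cells, but the cut was set per mouse and was lowest in KO1. Whether 2 cells shared a droplet was not tested.

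*Plvap* itself varied within the class. Fenestrated cells with under 10 *Plvap* UMIs per 10000 (6, 24, 18 and 17 cells) held 1.15, 2.37, 1.16 and 0.905% barrier transporter UMIs, those with 10 to 30 per 10000 (48, 126, 42 and 81 cells) 0.447, 0.625, 0.540 and 0.700%, and those above (51, 155, 66 and 69 cells) 0.318, 0.368, 0.291 and 0.370%. Barrier-range cells made up 1, 11, 14 and 6 of the cells low in *Plvap*. Without them the low cells held 0.271, 0.80, 0.819 and 0.329% and the high cells 0.318, 0.368, 0.291 and 0.322%, so that the order was no longer the same in all mice. *Igfbp3*, a secreted binding protein of insulin-like growth factors, stood at 1878, 473, 1985 and 1630 CPM in the cells low in *Plvap*, at 3217, 2919, 4448 and 3122 CPM in the middle and at 5162, 3563, 5890.0 and 4729.6 CPM in those high in it. Without the barrier-range cells it stood at 4452, 364, 531 and 1987 CPM in the low cells (5, 13, 4 and 11 cells). The middle cells then had 3221, 3097, 4816 and 3293 CPM and the high ones 5162, 3563, 5890.0 and 4752 CPM. The low cells were still below the high ones in each mouse, but in WT1 they lay above the middle ones.

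Cells at the edge of the rule were few, varied between mice and are given with no test. The 35 members with exactly 2 *Plvap* UMIs held 1.35, 0.559, 1.62 and 0.740% barrier transporter UMIs. Just outside, the 49 ECs with 1 *Plvap* UMI and at least 2 companion genes held 1.38, 1.87, 1.16 and 2.01%, and the 21 ECs with enough *Plvap* but too few companion genes 1.60, 2.25, 1.42 and 1.39%, so KO1 was higher inside the rule than outside it. In these 3 sets *Igfbp3* stood at 2107, 781 and 589 CPM over the 4 mice together. By mouse it stood at 1681, 4297, 3182 and 1480 CPM in the first set, at 1327, 739, 885 and 357 CPM in the next, and at 0, 2768, 490.0 and 141 CPM in the last, where WT1 had 1 cell. *Esm1*, a gene of sprouting ECs, was uneven, at 54.8, 1217.5, 301 and 195 CPM, then 241, 192, 1222 and 44.6 CPM, then 94.3, 132, 2123 and 28.1 CPM. A single mouse stood far above the others in each set, WT2 inside the rule and KO1 outside it.

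Gene expression was then compared between the classes on UMIs summed per mouse and class, with mouse as a term (edgeR quasi-likelihood test, Benjamini-Hochberg adjusted p under 0.05), leaving out the 14 genes of the rule. Of 12383 genes tested, 4685 were called (37.8%), 2367 higher in fenestrated cells (19.1%) and 2318 lower (18.7%), 46.4% had an unadjusted p under 0.05, and the median log2 difference of all genes was -0.037. Values below are CPM scaled by the TMM factors of the same fit, and differences are log2 of fenestrated over *Plvap*-0. The cells of both classes came from the same droplet libraries, so that free RNA of one class can add UMIs to the other.

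The list of 16 fenestrated and peripheral capillary genes was almost wholly higher: of 15 tested, 14 were higher and 1 lower, with a median log2 difference of 5.07. The list was chosen with earlier results of these data known, so the count describes the cells and is no independent check of their label. *Igfbp3* (chr11:7206086-7213923, minus strand) stood at 4388, 2922, 5128 and 3806 CPM in fenestrated cells and 17.5, 13.8, 31.4 and 29.6 CPM in *Plvap*-0 ECs, so that the lowest fenestrated value was far above the highest *Plvap*-0 value, with a difference of 7.53 (SE 0.18, adjusted p = 2.88e-09). *Plpp1*, a lipid phosphate phosphatase like the rule's *Plpp3*, stood at 1555, 1692, 1389 and 1322 against 44.4, 48.5, 44.1 and 41.4 CPM, a difference of 5.07 (SE 0.084, adjusted p = 5.83e-10). *Emcn*, an endothelial sialomucin, stood at 2132, 2424, 1808 and 2057 against 446, 463, 659 and 657 CPM, a difference of 1.95 (SE 0.15, adjusted p = 5.39e-06). *Aqp1*, a water channel, and *Cd300lg*, a receptor on the lumen of peripheral capillaries, were higher by 6.81 and 6.54. The exception was *Vwa1*, a matrix protein, at -1.47.

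*Esm1* (chr13:113209659-113218098, plus strand), which encodes a proteoglycan secreted by sprouting ECs under VEGF, had an unusual spread. It stood at 956, 633, 815 and 961 CPM in fenestrated cells and at 0.63, 0.60, 198 and 91.7 CPM in *Plvap*-0 ECs. Among *Plvap*-0 ECs the 2 *Angpt2*-WT mice thus had almost none and the 2 *Angpt2*-KO mice had some. The class difference was 5.74 (SE 1.46, adjusted p = 0.0115) over the 4 mice, 10.28 within *Angpt2*-WT and 2.72 within *Angpt2*-KO mice. Without mouse as a term its adjusted p was 0.064.

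The 10 largest rises by rule were genes with next to no UMIs in *Plvap*-0 ECs. *Btnl9*, a butyrophilin-like membrane protein, stood at 558, 404, 378 and 485 CPM against 0.28, 0.18, 0.62 and 0.65 CPM, a difference of 10.11 (SE 0.24, adjusted p = 2.88e-09). *Car8*, a carbonic anhydrase-related protein, stood at 436, 378, 509 and 417 against 0.47, 0.48, 0.18 and 0.61 CPM. *Col13a1* and *Col15a1*, 2 collagens of the cell surface and the basement membrane zone, were higher by 9.85 and 8.78. The muscarinic receptor gene *Chrm2* had 33, 79, 92 and 71 UMIs in fenestrated cells and 1, 0, 1 and 2 UMIs in the far larger *Plvap*-0 class. The others were *Gm12002* (9.73), the neurotrophin *Ntf3* (9.61), the activin subunit *Inhbb* (9.44), *Fam167b* (9.37) and *Fam174b* (8.92).

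**Figure D3:**
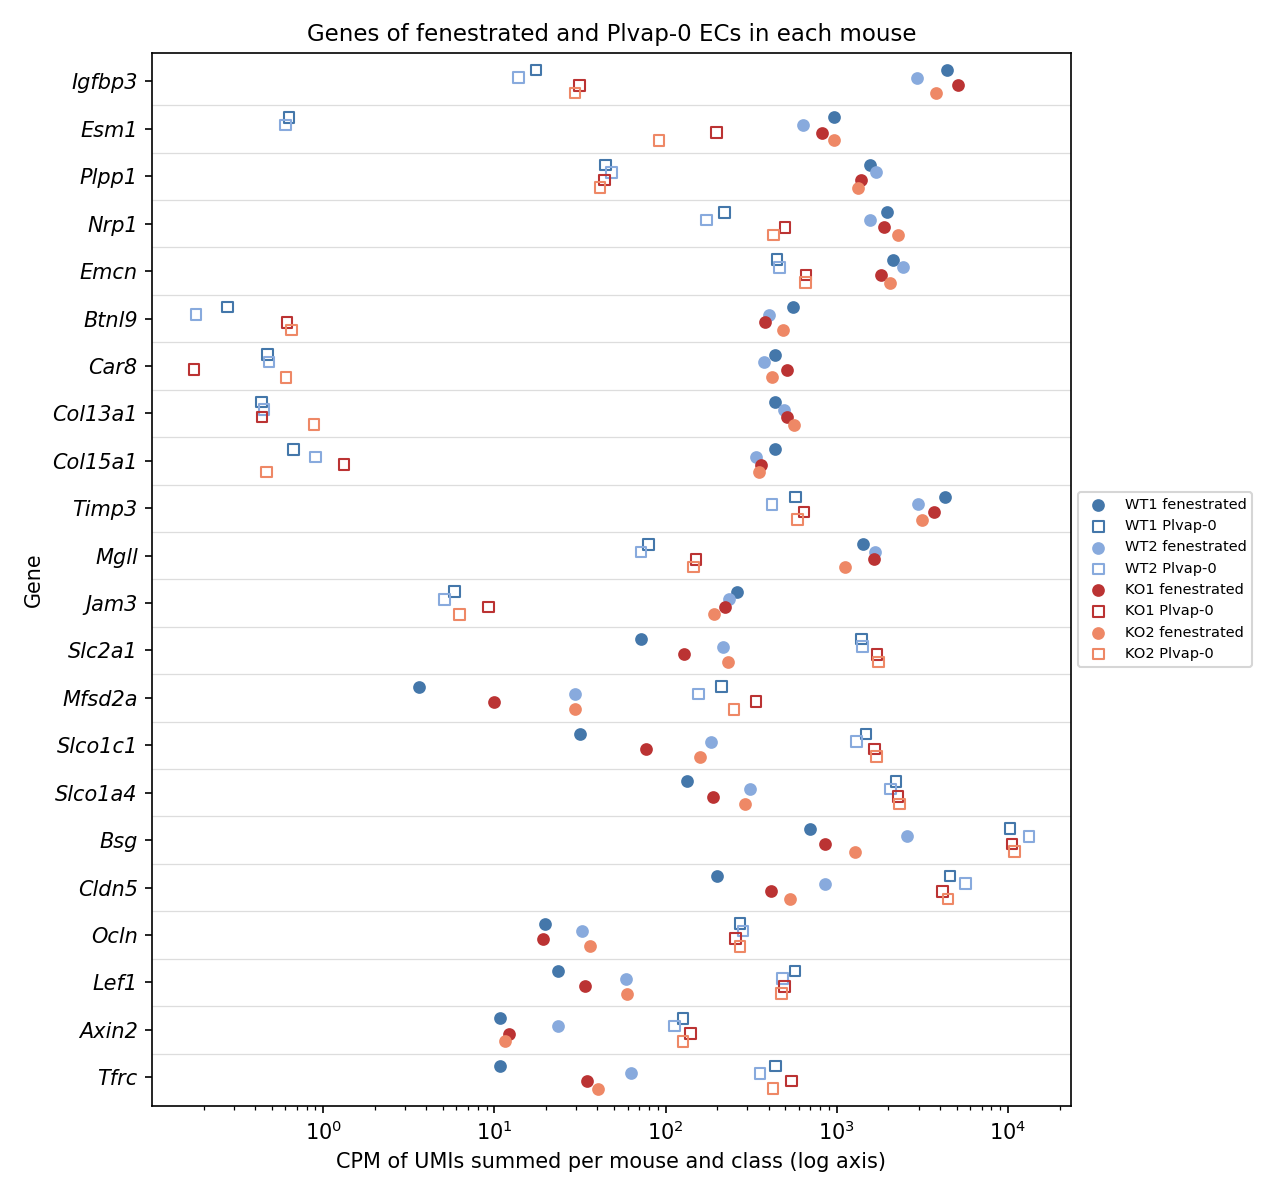
CPM (log x axis) of 22 genes in UMIs summed over fenestrated cells (filled circles) and *Plvap*-0 ECs (open squares) of each mouse. The classes did not overlap for any of these genes, and *Esm1* in *Plvap*-0 ECs was at 0.6 CPM in the *Angpt2*-WT mice and at 198 and 91.7 CPM in the *Angpt2*-KO mice.

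BBB transporters were lower nearly throughout. Of the 24 genes tested on this list, 22 were lower and 1 was higher, *Slc9a3r2* (0.61), which is not itself a transporter gene. The median difference was -3.24. *Slc2a1* (chr4:119108711-119137983, plus strand), the glucose transporter GLUT1, stood at 72.2, 217, 128 and 229.9 CPM in fenestrated cells and 1393, 1413, 1713 and 1747 CPM in *Plvap*-0 ECs, a difference of -3.35 (SE 0.23, adjusted p = 2.45e-06). *Mfsd2a* (chr4:122946850-122961188, minus strand), a lipid transporter that limits vesicle traffic in barrier ECs, stood at 3.61, 29.8, 9.88 and 29.5 against 213, 155, 337 and 251 CPM, a difference of -3.55 (SE 0.38, adjusted p = 4.78e-05). *Slco1c1*, a carrier of thyroid hormone, stood at 31.6, 183, 77.3 and 158 against 1483, 1299.8, 1654 and 1711 CPM, the largest fall of all genes named by rule, -3.91 (SE 0.35, adjusted p = 1.62e-05). WT1 had the lowest fenestrated value of all 3 genes, and no fenestrated value reached a *Plvap*-0 value. *Slco2b1*, at -0.21 (SE 0.11, adjusted p = 0.157), did not pass the test.

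Leaving out the barrier-range cells, which were picked by these transporter UMIs, had to lower the transporter values, so the values without them describe the remaining cells only. Without the 57 cells the median difference of the transporter list was -4.17 with the same 22 genes lower, *Slc2a1* was at -4.39, *Mfsd2a* at -4.70 and *Cldn5* at -4.48. The fenestrated list moved from 5.07 to 5.15. This grouping was made after the values were seen.

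Tight and adherens junction genes were split. Of 17 tested, 11 were lower and 4 higher, with a median of -0.63. *Cldn5* stood at 199.5, 853, 414 and 535 CPM against 4585, 5649, 4156 and 4461 CPM, a difference of -3.37 (SE 0.25, adjusted p = 3.89e-06), and *Ocln*, the gene of occludin, and *Lsr*, of a tricellular junction receptor, were lower by -3.32 and -3.29. In contrast, *Jam3*, of a junctional adhesion molecule, was higher at 260.0, 235, 223 and 191 against 5.85, 5.09, 9.24 and 6.24 CPM, a difference of 5.15 (SE 0.16, adjusted p = 2.32e-08), and so were *Jup* (2.15), the gene of plakoglobin, *F11r* (0.54) and *Ctnnd1* (0.26).

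The Wnt/β-catenin list followed the barrier genes, with 17 of 22 tested genes lower, 4 higher and a median of -1.95. Transcription factor *Lef1* stood at 23.5, 58.4, 33.7 and 59.7 CPM against 569, 482, 494 and 476 CPM, a difference of -3.51 (SE 0.22, adjusted p = 1.46e-06). The target *Axin2*, a feedback inhibitor of the pathway, stood at 10.8, 23.7, 12.2 and 11.5 against 126, 113, 139 and 126 CPM, a difference of -2.98 (SE 0.20, adjusted p = 2.45e-06). *Apcdd1* (-3.15), *Nkd1* (-3.13) and *Notum* (-3.56), other feedback inhibitors, and *Foxq1* (-3.14), a transcription factor of barrier ECs, were lower as well. The 4 that were higher were the receptor *Fzd4* (1.01), its coreceptor *Lrp5* (1.11), the receptor partner *Tspan12* (1.65) and *Tcf7l1* (2.27), a factor that mostly represses. Other receptor components were lower, namely *Fzd6* (-1.59), the coreceptor *Lrp6* (-1.09), and *Adgra2* (-2.04) and *Reck* (-1.36), which together pass on the WNT7 signal, so that the receptor side of the list went both ways.

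Promoter sequences of 2 genes higher (*Esm1* and *Igfbp3*) and 2 lower (*Mfsd2a* and *Slc2a1*) in fenestrated cells are shown because the classes differed in Wnt/β-catenin targets. Each is the 250 bases before the RefSeq gene start on GRCm38.p6, 5′ to 3′ on the gene's strand. Capitals mark CTTTGA, a core that TCF/LEF factors bind and that reads TCAAAG on the opposite strand, in *Esm1* (chr13:113209409-113209658, plus strand) and *Mfsd2a* (chr4:122961189-122961438, minus strand), and CCGGAA, a core of ETS factors that reads TTCCGG on the opposite strand, in *Igfbp3* (chr11:7213924-7214173, minus strand). Neither core was found in *Slc2a1* (chr4:119108495-119108744, plus strand).
Esm1: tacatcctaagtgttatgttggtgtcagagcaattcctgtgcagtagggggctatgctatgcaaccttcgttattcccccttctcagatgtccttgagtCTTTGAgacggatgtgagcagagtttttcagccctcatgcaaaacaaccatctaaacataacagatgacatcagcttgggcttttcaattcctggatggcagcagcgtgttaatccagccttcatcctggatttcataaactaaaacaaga
Mfsd2a: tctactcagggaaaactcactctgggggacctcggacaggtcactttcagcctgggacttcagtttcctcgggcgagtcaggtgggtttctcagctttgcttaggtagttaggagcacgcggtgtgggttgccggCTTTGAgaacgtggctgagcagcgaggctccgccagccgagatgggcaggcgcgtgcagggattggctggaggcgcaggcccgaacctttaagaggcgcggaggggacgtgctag
Igfbp3: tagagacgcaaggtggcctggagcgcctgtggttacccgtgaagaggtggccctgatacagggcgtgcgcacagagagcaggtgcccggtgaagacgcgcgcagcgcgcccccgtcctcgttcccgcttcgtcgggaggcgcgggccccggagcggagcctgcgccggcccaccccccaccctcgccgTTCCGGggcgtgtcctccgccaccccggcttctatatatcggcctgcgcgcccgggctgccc
Slc2a1: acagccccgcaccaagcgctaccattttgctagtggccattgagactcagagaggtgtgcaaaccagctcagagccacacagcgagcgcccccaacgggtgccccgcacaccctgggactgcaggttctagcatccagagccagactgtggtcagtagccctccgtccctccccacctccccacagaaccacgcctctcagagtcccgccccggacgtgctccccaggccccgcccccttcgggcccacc
CTTTGA on either strand was found in 9.0% of promoters of genes higher in fenestrated cells and in 11.5% of those lower, against 10.6% of the 9534 tested genes with a promoter sequence and 14.05% of all 27025 promoters. CCGGAA was found in 17.7% and 19.3%, against 23.5% of tested genes and 12.2% of all promoters. The shares of the 2 directions were not tested against each other, and a match is only these letters in this window. *Plvap* had no promoter entry.

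VEGF and angiopoietin genes came out higher in 4 and lower in 1 of 10 tested. *Nrp1*, a VEGF coreceptor, stood at 1972, 1557, 1887 and 2279 CPM in fenestrated cells and 221, 173, 498 and 425 CPM in *Plvap*-0 ECs, a difference of 2.69 (SE 0.20, adjusted p = 4.01e-06). The ligand gene *Vegfa* was higher by 3.32, the VEGF-C receptor gene *Flt4* by 1.39 and *Nrp2* by 0.90, while *Vegfc* was lower (-1.68). *Tek*, the gene of TIE2, was at -0.073 (SE 0.11, adjusted p = 0.633) and did not pass the test.

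Angiogenic and tip cell genes were higher in 15 and lower in 4 of 26 tested, with a median of 1.14. Besides *Esm1* and *Inhbb* they included the Notch ligand *Dll4* (0.65), the potassium channel subunit *Kcne3* (4.32) and *Bmp6* (4.66), while *Vwf* (-2.13) and *Adm* (-2.21) were lower. Basement membrane and matrix genes were higher in 13 and lower in 4 of 20, with a median of 1.00. *Timp3*, an inhibitor of matrix proteases, stood at 4288, 2977, 3715 and 3126 CPM against 575, 419, 644 and 588 CPM, a difference of 2.68 (SE 0.097, adjusted p = 5.16e-08), and perlecan (*Hspg2*) and *Mfge8* were higher by 2.49 and 3.23. Within *Angpt2*-KO mice 9 of the tip cell genes were lower, and without WT2 7. The lists for tip cells and basement membrane share *Col4a1*, *Col4a2*, *Nid1* and *Lamb1*.

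Lipid handling genes were higher in 11 and lower in 1 of 13, with a median of 1.97. *Mgll*, a monoacylglycerol lipase, stood at 1414, 1662, 1653 and 1113 CPM against 79.2, 71.7, 151 and 145 CPM, a difference of 3.79 (SE 0.24, adjusted p = 1.51e-06). *Lpl*, the lipase that the rule's GPIHBP1 anchors, was higher by 5.59, the nuclear receptor gene *Pparg* by 6.0 and the fatty acid carrier genes *Fabp4* and *Fabp5* by 3.49 and 4.05. *Angptl4*, which inhibits that lipase, was lower by -3.53.

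Caveola and vesicle genes did not move together, with 4 higher and 5 lower of 15 and a median of -0.020. *Cav1*, the coat protein of caveolae, was at -0.39, while *Cavin2* and *Ehd2*, which shape the caveolar neck and coat, were at 1.04 and 1.24. Arterial markers were higher in 3 and lower in 5 of 11 (median -0.59), with *Efnb2* (2.15) and *Gja4* (2.40) against *Gkn3* (-3.78) and *Bmx* (-2.57). Venous markers were higher in 1 and lower in 6 of 9 (median -1.48), with *Ephb4* (1.02) against *Nr2f2* (-1.48), *Vcam1* (-2.22) and *Vwf*. Fenestrated cells thus matched neither list as a whole.

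Endothelial transcription factors were higher in 7 and lower in 12 of 25 (median -0.25). *Ldb2*, a cofactor of LIM-domain proteins, and *Meis2*, a homeobox factor, were higher by 5.85 and 5.72, and *Sox18* by 0.94, whereas *Sox17* (-1.86), *Mecom* (-1.84) and *Foxf2* (-1.03) were lower. Genes of leukocyte adhesion and antigen presentation were higher in 4 and lower in 6 of 12 (median -0.21). The class I genes *B2m* (0.61), *H2-D1* (0.74) and *H2-K1* (0.72) rose, and the chemokine *Cxcl12* (-1.65) and *Ly6c1* (-1.06) fell. Immediate early and heat shock genes, which dissociation can induce, were higher in 10 and lower in 1 of 12 (median 0.56), with *Egr1* at 1.44 and *Fos* at 0.85. This count was 4 higher without mouse as a term and 6 within *Angpt2*-WT mice.

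**Figure D4:**
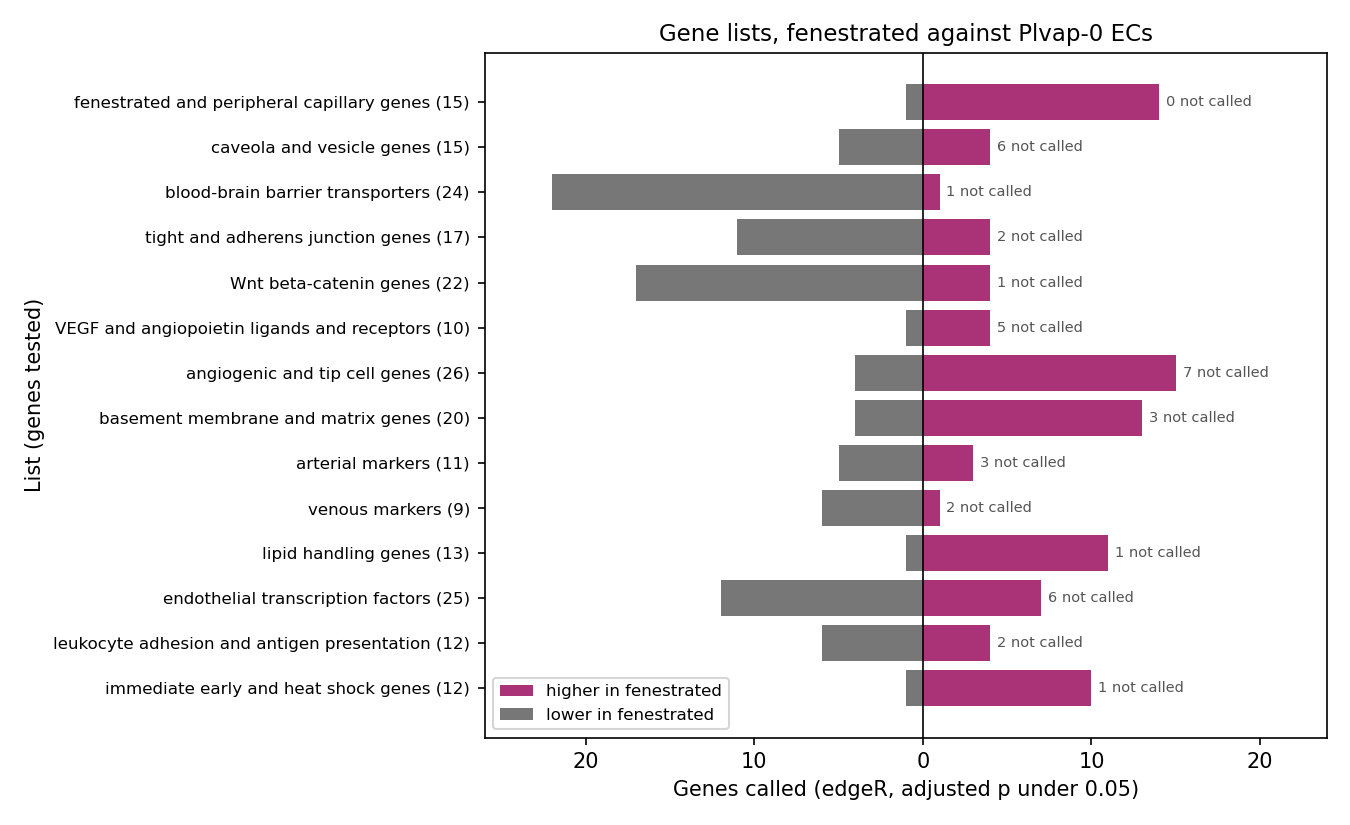
Number of genes called higher (right) or lower (left) in fenestrated cells than in *Plvap*-0 ECs for each gene list, with the number tested in parentheses and the number not called beside the bar. The BBB transporter list had 22 of 24 genes lower, and the fenestrated and peripheral capillary list 14 of 15 higher. All lists were chosen with earlier results of these data known.

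The remaining genes with the largest falls by rule were *Gm9946* (-3.79), *Gkn3*, *Igsf5* (-3.75), *Rad54b* (-3.71), *Stxbp6* (-3.70), *Spock2* (-3.68), a matrix proteoglycan on the transporter list, *Prom1* (-3.67), *Ndnf* (-3.64) and the growth factor *Ptn* (-3.60).

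Markers of other cell types were looked at in the same sums, with summed levels given in CPM without TMM scaling. Choroid plexus epithelium genes had 0 higher and 4 lower of 7 tested. Their summed level was 659, 538, 209 and 299 CPM in fenestrated cells and 790.1, 3312, 217 and 1248 CPM in *Plvap*-0 ECs. *Ttr* had the most in WT1, WT2 and KO2, and *Enpp2*, the gene of autotaxin, in KO1 (151 and 156 CPM), and *Kcnj13* and *Clic6* had no UMI in the fenestrated cells of KO1 and KO2. Pericyte genes had 2 higher (*Abcc9* and *Notch3*) of 5 tested. Their sum was 62.0, 48.5, 262 and 108 CPM against 50.6, 45.7, 41.4 and 56.4 CPM, highest in KO1 through *Rgs5*. Microglia and macrophage genes had 2 higher of 8, at sums of 62.9, 75.8, 75.6 and 88.8 CPM against 61.7, 51.3, 48.0 and 79.9 CPM.

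By edgeR, smooth muscle genes had 0 called of 5 (sums of 12.4 to 31.3 CPM in fenestrated cells) and fibroblast genes 0 of 2 (0.71 to 10.7 CPM). B and T cell genes had 2 lower of 3 (0.82 to 2.48 CPM), and genes of oligodendrocytes and neurons 1 higher (*Rbfox3*) of 5 (3.54 to 83.2 CPM, highest in WT2 through *Mbp*). Astrocyte genes had 1 higher and 2 lower of 4, where the 1 was the connexin gene *Gja1* (2.05), which made up most of the sum, and *Aqp4* and *Gfap* were at 0 in WT1, KO1 and KO2. Erythroid genes had 0 called of 5 by edgeR and 2 by DESeq2. In the smooth muscle, fibroblast and erythroid lists 0 genes had an unadjusted p under 0.05, and DESeq2 called 0 of the smooth muscle and fibroblast genes. Of the sex-linked genes 3 of 5 were lower, and *Xist* had UMIs in fenestrated cells of WT1 and KO1 and none in WT2 and KO2, which matched the labelled sex. What these transcripts add to the differences between the classes was not tested.

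The genotype comparison within fenestrated cells started from *Angpt2* itself (chr8:18690263-18741562, minus strand, inside *Mcph1* on the other strand). It stood at 56.9 and 46.3 CPM in WT1 and WT2 and at 17.4 and 18.0 CPM in KO1 and KO2, so both *Angpt2*-KO mice lay below both *Angpt2*-WT mice, with a KO over WT log2 difference of -1.53 (SE 0.25, adjusted p = 0.0283). In *Plvap*-0 ECs of the same libraries it stood at 10.6 and 9.58 CPM against 60.7 and 40.8 CPM, the other way round. Because the kit reads the 3′ end of a transcript and the deletion takes exon 4, these UMIs check neither the deletion nor the genotype labels.

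Few genes passed the test between genotypes in fenestrated cells. Of 9310 genes tested, 13 were called (0.14%), 5 higher (0.0537%) and 8 lower (0.0859%) in *Angpt2*-KO mice, and 446 had an unadjusted p under 0.05 (4.79%). The same test in *Plvap*-0 ECs, on far deeper sums, called 500 genes higher (3.7%) and 252 lower (1.86%) of 13518 (5.56% in all, and 18.8% at an unadjusted p under 0.05), numbers that were 88 and 68 without WT2 and 810 and 564 without KO2. BBB transporters had 0 called of 23 tested in fenestrated cells by edgeR, with 1 at an unadjusted p under 0.05 and 1 called by DESeq2, although 3 were lower without WT1 and 2 higher without WT2. By edgeR, 0 were also called of 15 junction genes (0 at an unadjusted p under 0.05), 20 Wnt/β-catenin genes (3), 19 basement membrane genes (3) and 15 caveola genes (0), with 0 called by DESeq2 in each of these 4 lists. The tip cell list had 1 of 25, *Angpt2*, with 8 at an unadjusted p under 0.05 and 0 called by DESeq2. Calls in other lists were *Igfbp5* among fenestrated, *Mgp* among arterial and *Rgs5* among pericyte genes, with *Ttr* besides among choroid plexus epithelium genes and the 4 hemoglobin genes among erythroid genes, while the lists of venous, lipid, transcription factor, leukocyte adhesion and immediate early genes had 0 called by edgeR and by DESeq2, and 3, 4, 5, 3 and 1 genes at an unadjusted p under 0.05.

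DESeq2 called 2 genes higher and 8 lower. Of the 13 genes, *Angpt2* (adjusted p = 0.141), *Itga4* (0.158), *Mgp*, *Rgs5*, *Igfbp5* and *Ttr* were not among those past its threshold.

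*Bgn*, the matrix proteoglycan biglycan, stood at 15.3 and 26.2 CPM in *Angpt2*-WT and 77.9 and 73.6 CPM in *Angpt2*-KO mice, a difference of 1.75 (SE 0.25, adjusted p = 0.00883), with 37.8% of its 90 UMIs in KO2 in 1 cell. *Pdlim1*, an actin-associated protein, stood at 7.22 and 11.8 against 58.7 and 36.0 CPM, a difference of 2.20 (SE 0.32, adjusted p = 0.00986). *Ckb*, the brain creatine kinase, was lower at 135 and 167 against 75 and 67.1 CPM, a difference of -1.11 (SE 0.19, adjusted p = 0.0324). The rule took only genes without overlap of the genotypes.

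Further calls rested on a few cells as well. *Mgp*, a matrix inhibitor of calcification, stood at 45.1 and 48.4 against 122 and 401 CPM, with a difference of 2.44 (SE 0.40, adjusted p = 0.0283), but 81.6% of its 490 UMIs in KO2 lay in 1 cell, and without the barrier-range cells its adjusted p was 0.834. *Itga4*, an integrin subunit, stood at 15.3 and 11.5 against 56.4 and 31.9 CPM, with a difference of 1.79 (SE 0.32, adjusted p = 0.0421), with 44.3% of the KO1 UMIs in 1 cell. *Rgs5* stood at 48.8 and 37.6 against 217 and 85.9 CPM, with a difference of 1.84 (SE 0.33, adjusted p = 0.0464), and without the barrier-range cells its difference was 0.50 (adjusted p = 0.95). *Igfbp5*, another binding protein of insulin-like growth factors, stood at 23.5 and 189 against 1.16 and 7.36 CPM, with a difference of -4.90 (SE 0.84, adjusted p = 0.0324), from 3, 19, 2 and 2 cells with a UMI.

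The hemoglobin genes had the largest differences. *Hba-a1* stood at 934 and 1292 CPM in *Angpt2*-WT and 6.39 and 18.0 CPM in *Angpt2*-KO fenestrated cells, a difference of -6.61 (SE 0.34, adjusted p = 1.17e-07), and *Hbb-bt*, *Hba-a2* and *Hbb-bs* were at -6.91, -6.17 and -6.16. Only 12 fenestrated cells held 1% or more hemoglobin UMIs (2, 9, 0 and 1), and 1 cell of WT1 held 92.1% of its *Hbb-bs* UMIs. Without those 12 cells the 4 differences lay between -1.27 and -0.32, with adjusted p between 0.752 and 0.968. *Plvap*-0 ECs held 5787 to 7423 CPM (without TMM scaling) of erythroid transcripts in every mouse.

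*Ttr*, the transthyretin of the choroid plexus epithelium, was also lower, at 487 and 384 CPM against 56.4 and 163 CPM, with a difference of -2.03 (SE 0.34, adjusted p = 0.0304). In *Plvap*-0 ECs it stood at 686 and 2948 against 57.1 and 1046 CPM, and in 722 cells of the same libraries picked by microglia genes at 1466 and 1117 against 95.7 and 472 CPM (without TMM scaling), so KO1 was lowest in all 3 cell classes. The part of free RNA in this difference was not tested.

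These calls varied with the mice in the fit. Leaving out a mouse leaves 1 in its arm, which is then assumed to vary like the 2 mice of the other genotype. Without WT1, 30 genes were higher and 56 lower, without WT2 12 and 11, without KO1 5 and 5, and without KO2 6 and 8. Of the 13 genes, *Bgn* and the 4 hemoglobin genes kept their call without each mouse in turn. Without KO1 the other 7 apart from *Mgp*, and without KO2 *Mgp*, *Igfbp5*, *Angpt2* and *Ckb*, lost theirs, and *Itga4*, *Igfbp5* and *Ckb* did so without WT2. *Angpt2* was at adjusted p = 0.259 without KO1 and 0.126 without KO2, with differences of -1.51 and -1.55 that hardly moved. With at least 4 *Plvap* UMIs required per cell, 0 genes were called by edgeR and 388 had an unadjusted p under 0.05.

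Whether the genotype difference was the same in fenestrated cells as in *Plvap*-0 ECs was tested directly, as an interaction of genotype and class. Of 13199 genes, the KO over WT difference was lower in fenestrated cells for 176 (1.33%) and higher for 61 (0.462%), 1.8% in all, and 8.74% had an unadjusted p under 0.05. The tip cell genes made up part of these, with 13 of 27 lower and 0 higher. In *Plvap*-0 ECs 19 of 25 tip cell genes were higher in *Angpt2*-KO mice (median 1.83), against 1 lower and 0 higher of 25 in fenestrated cells (median 0.20). Without WT2, 7 of the tip cell genes were higher in *Plvap*-0 ECs, while the interaction kept between 12 and 15 lower under every alternative tried. Without WT1 the number of genes with a higher difference in fenestrated cells was 95. Both comparisons rest on the same 4 mice. The tip cell list was chosen with earlier results of these data known. It holds genes that the authors named from knockout-dominated ECs of these libraries, among them *Esm1*, *Apln*, *Mcam* and *Lamb1*. A rise of the list in *Plvap*-0 ECs was thus partly built in, and the counts are descriptive.

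*Esm1* was the clearest case. In fenestrated cells it stood at 956 and 633 CPM in *Angpt2*-WT and 815 and 961 CPM in *Angpt2*-KO mice, which overlapped, and in *Plvap*-0 ECs at 0.63 and 0.60 against 198 and 91.7 CPM, which did not. An *Esm1* UMI was found in 0.516, 0.408, 16.1 and 9.01% of *Plvap*-0 ECs (0.101, 0.0999, 8.37 and 6.0% after thinning to 2000 UMIs), and in 0, 0, 1.87 and 1.44% of the cells picked by microglia genes, whose median depth was 4064, 3723, 6138 and 3254 UMIs. These shares count cells with a UMI, not cells expressing the gene, and the sums cannot tell a different makeup of that class from a change within its cells. The interaction was -7.57 (SE 0.36, adjusted p = 3.31e-10). *Angpt2* had an interaction of -3.88 (SE 0.25, adjusted p = 9.36e-09), with a fall in one class and a rise in the other. *Fscn1*, an actin bundler of filopodia, stood at 90.3 and 79.6 against 124 and 76.9 CPM in fenestrated cells and 2.92 and 2.14 against 68.6 and 24.1 CPM in *Plvap*-0 ECs, an interaction of -3.91 (SE 0.25, adjusted p = 9.36e-09).

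*Meox1*, a homeobox factor, and *Bmp6* gave -3.04 (SE 0.18, adjusted p = 4e-09) and -3.72 (SE 0.24, adjusted p = 9.44e-09), and *Trp53i11* and *Mcam* gave -2.79 (SE 0.21, adjusted p = 1.04e-07) and -1.83 (SE 0.17, adjusted p = 1.37e-06). *Nrp1* was at 1972 and 1557 against 1887 and 2279 CPM in fenestrated cells and 221 and 173 against 498 and 425 CPM in *Plvap*-0 ECs, an interaction of -0.99 (SE 0.14, adjusted p = 0.000315). *Apln* gave -3.51 (SE 0.32, adjusted p = 1.21e-06), but 84.9% of its UMIs in the fenestrated cells of KO1 lay in 1 cell. For *Esm1*, *Fscn1*, *Bmp6* and *Nrp1* the fenestrated level was above every *Plvap*-0 level in both genotypes.

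**Figure D5:**
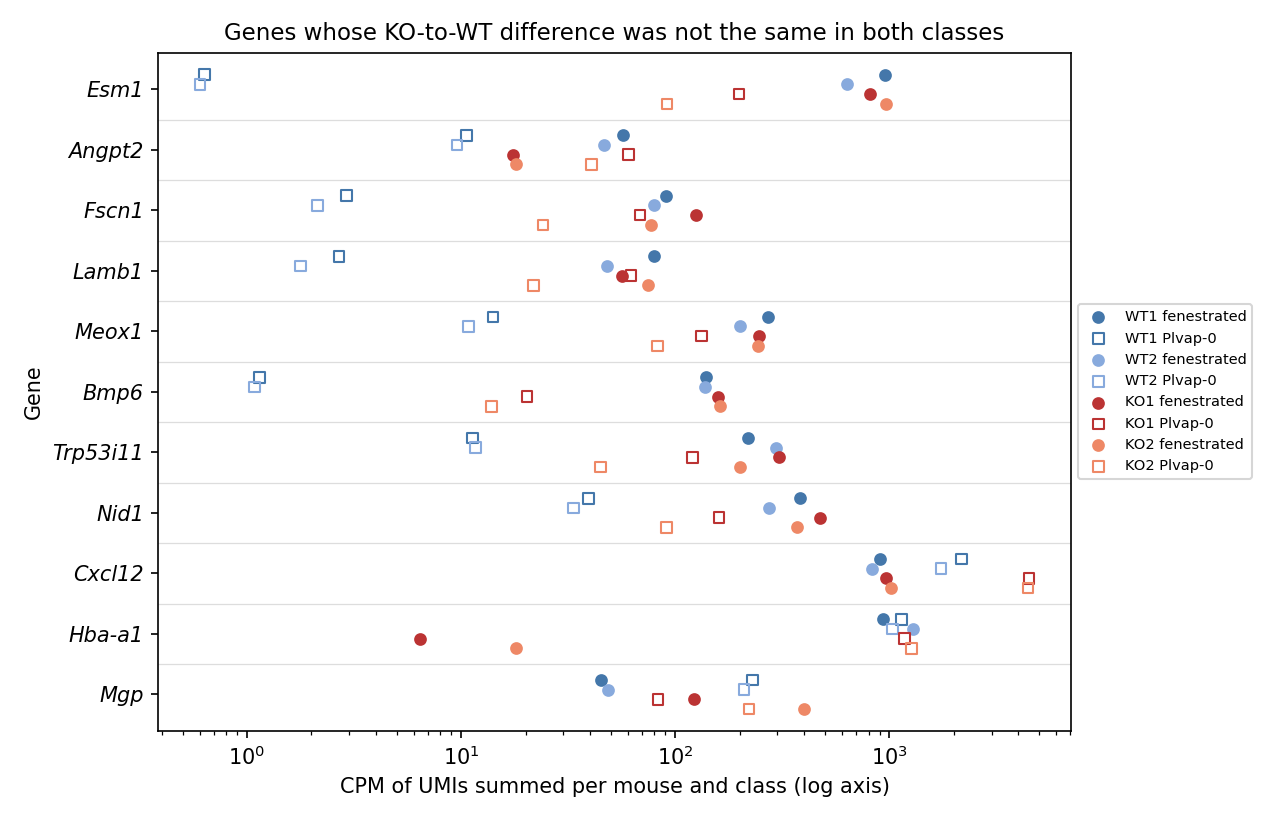
CPM (log x axis) of 11 genes with an interaction of genotype and class, in fenestrated cells (filled circles) and *Plvap*-0 ECs (open squares) of each mouse. For *Esm1* the *Plvap*-0 values moved from 0.6 CPM in *Angpt2*-WT to 198 and 91.7 CPM in *Angpt2*-KO mice, while the fenestrated values stayed between 633 and 961 CPM.

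Basement membrane genes showed the same direction, with 9 of 20 lower and 0 higher in the interaction. This list, also chosen with earlier results known, shares *Col4a1*, *Col4a2*, *Nid1* and *Lamb1* with the tip cell list. *Lamb1*, a laminin chain, stood at 79.4 and 48.0 against 56.4 and 74.5 CPM in fenestrated cells and 2.69 and 1.78 against 62.2 and 21.8 CPM in *Plvap*-0 ECs, an interaction of -4.12 (SE 0.42, adjusted p = 5.38e-06), and *Nid1*, nidogen, gave -1.37 (SE 0.16, adjusted p = 2.42e-05). Among *Plvap*-0 ECs 9 of 20 genes of this list were higher in *Angpt2*-KO mice, a count that was 0 without WT2, whereas the interaction kept between 8 and 11 lower under every alternative tried. The chemokine *Cxcl12* stood at 905 and 833 against 966 and 1018 CPM in fenestrated cells and 2175 and 1741 against 4499 and 4439 CPM in *Plvap*-0 ECs, an interaction of -1.01 (SE 0.12, adjusted p = 3.45e-05).

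Immediate early and heat shock genes went the other way, with 7 of 12 higher in the interaction and 0 lower. *Junb* stood at 1359.7 and 1255 against 1141 and 1255 CPM in fenestrated cells and at 1183 and 1009 against 557 and 608 CPM in *Plvap*-0 ECs, an interaction of 0.78 (SE 0.12, adjusted p = 0.000455), and *Egr1* gave 0.73 and *Fos* 0.66. Among *Plvap*-0 ECs 4 of the 12 were lower in *Angpt2*-KO mice and 0 higher, while in fenestrated cells 0 of 12 were called by edgeR or DESeq2. With at least 4 *Plvap* UMIs required, 4 were higher in the interaction.

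The fenestrated list itself had 7 of 16 lower (*Igfbp3*, *Cd300lg*, *Emcn*, *Esm1*, *Ehd4*, *Nrp1* and *Igfbp5*) and 1 higher (*Fabp4*) in the interaction. In *Plvap*-0 ECs *Igfbp3*, *Cd300lg*, *Esm1*, *Ehd4* and *Nrp1* were called higher in *Angpt2*-KO mice. In fenestrated cells only *Igfbp5* of this list was called between genotypes, and it was lower in *Angpt2*-KO mice.

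BBB transporters had 0 of 24 called in the interaction by edgeR and by DESeq2, with 1 at an unadjusted p under 0.05, but this rested on both *Angpt2*-WT mice. Without WT1 16 of them were lower, and without WT2 8 were higher. Their summed level in fenestrated cells was 4083 CPM in WT1 and 7468 CPM in WT2, on either side of 4255 CPM in KO1 and 5488 CPM in KO2 (without TMM scaling). In *Plvap*-0 ECs 0 of 24 were called by edgeR, with 5 at an unadjusted p under 0.05 and 4 called by DESeq2.

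The largest interactions by rule included genes with few UMIs in fenestrated cells, for which counts are given. *Cytl1* had 0, 0, 0 and 80 UMIs, all from 1 cell of KO2, and *Nos1*, the neuronal nitric oxide synthase, 0, 0, 2 and 9. *Mki67*, a proliferation marker, had 0, 14, 0 and 0 UMIs, from 2 cells of WT2. *Egln3* had 1, 8, 2 and 0 and *2610203C22Rik* 5, 10, 0 and 3, while *Plvap*-0 ECs had 2, 5, 233 and 63 and 3, 0, 66 and 31. *Fbln5*, an elastic fibre protein, had 4, 11, 10 and 74, of which 90.5% in KO2 lay in 1 cell. *Foxp2* had 16, 21, 41 and 15 and *Fabp4* 3, 26, 29 and 60 UMIs (the latter from 2, 10, 9 and 9 cells, with 86.2% of those in KO1 and 91.7% of those in KO2 in 5 cells), at interactions of 2.94 (SE 0.61, adjusted p = 0.0125) and 3.24 (SE 0.55, adjusted p = 0.00187). Without KO1 *Foxp2* lost its call (adjusted p = 0.295), *Cytl1*, *Nos1*, *Fbln5* and *Mki67* did so without KO2, and *Mki67* and *Egln3* without WT2.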

How the data were processed

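Single-cell libraries of 4 mice (3067 to 6436 barcodes, 32417490 to 44861008 UMIs each) were read as the authors deposited them, as whole UMI counts per gene and barcode from Cell Ranger, version 6.1.2 per the processing notes and 6.1.1 per the file headers, on mm10. Barcodes with 500 genes or fewer (1390) or 10% or more mitochondrial UMIs (857) were removed. No doublet caller was run. The mural cell and microglia gate and an alternative without the 70 fenestrated cells over 20000 UMIs were used in its place. Neither reaches 2 ECs that shared a droplet below that depth. Cells are not replicates: counts were summed per mouse and class and tested in edgeR 4.0.16 (quasi-likelihood, TMM factors, filterByExpr, limma 3.58.1, R 4.3.3), with the class comparison blocked by mouse and the interaction fitted over both classes. Shares were compared by exact permutation (scipy 1.17.1, with Python 3.11.15, numpy 2.4.6, pandas 2.3.3 and matplotlib 3.10.9). The scripts were tested on simulated data. Alternatives were DESeq2 1.42.0, RLE factors, no filter, each mouse left out, a replicate block, no mouse term, 4 or more *Plvap* UMIs, ECs with 0 or 1 *Plvap* UMI as the reference, each genotype alone, and no cells over 20000 UMIs, and for shares thinning to 2000 UMIs, no marker gate and all quality cells as the denominator. Leaving out barrier-range or hemoglobin-rich cells was added after seeing the data.

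Members, the 25 gene lists (299 genes, 298 of them in the files) and tests were chosen with earlier results of these data known. Named genes were list members, the 10 largest called rises and falls between classes (at least 20 CPM in the higher class, same direction in 4 mice), and the 5 largest called rises and falls per genotype comparison with no overlap of genotypes. Gene spans are GENCODE M21 on GRCm38, which held 99.6% of gene IDs. Promoters are RefSeq's, on GRCm38.p6. Results for some genes are not reported here.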

Additional observations from a re-analysis of the deposited data

Results flagged for a closer look

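The KO over WT difference was not the same in fenestrated cells as in *Plvap*-0 ECs for the following named genes, by the edgeR test of the interaction itself (adjusted p under 0.05, 4 mice). Values are log2 differences, fenestrated minus *Plvap*-0. Of these 62 genes, 31 kept the call under every alternative run for them (10, or 9 for *Alas2*), and 25 of the other 31 lost it without at least 1 mouse, 6 without WT1, 7 without WT2, 11 without KO1 and 9 without KO2. DESeq2 did not call 14, and 18 were lost with 4 or more *Plvap* UMIs. Without barrier-range cells 4 were lost, namely *Bmx*, *Gkn3*, *Rgs5* and *Alas2*. Without hemoglobin-rich cells 4 were lost, all of them hemoglobin genes.

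Tip cell genes with a lower difference in fenestrated cells were *Esm1* (-7.57), *Angpt2* (-3.88), *Apln* (-3.51), *Mcam* (-1.83), *Cxcr4* (-2.14), *Plxnd1* (-0.90), *Trp53i11* (-2.79), *Fscn1* (-3.91), *Ccn2* (-2.60) and *Bmp6* (-3.72). Those of the basement membrane were *Col4a2* (-0.58), *Nid1* (-1.37), *Lamb1* (-4.12), *Lama4* (-0.85), *Lamc1* (-0.84), *Nid2* (-1.37), *Hspg2* (-1.09), *Sparc* (-0.55) and *Serpinh1* (-0.68). Of the capillary, junction, lipid, transcription factor and chemokine lists they were *Nrp1* (-0.99), *Cd300lg* (-2.52), *Igfbp3* (-0.66), *Emcn* (-0.77), *Ehd4* (-0.56), *Jam3* (-0.76), *Mgll* (-1.15), *Meox1* (-3.04) and *Cxcl12* (-1.01), and *Btnl9* (-1.60) was lower besides. In *Plvap*-0 ECs all of these genes but *Sparc*, *Emcn*, *Jam3* and *Btnl9* were called higher in *Angpt2*-KO mice, and in fenestrated cells *Angpt2* alone was called. *Btnl9* lost its call without each of the 4 mice, *Cxcr4* and *Serpinh1* without WT1, *Jam3* without WT2, and *Ehd4*, *Jam3* and *Lama4* without KO1.

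Immediate early and heat shock genes had a higher difference in fenestrated cells: *Fos* (0.66), *Fosb* (0.61), *Junb* (0.78), *Egr1* (0.73), *Hspa1a* (0.88), *Hspa1b* (0.77) and *Ier2* (0.57). The phosphatase gene *Ptprb* (0.49) did as well, as did the caveola gene *Cavin2* (0.54), the arterial genes *Bmx* (2.20) and *Gkn3* (2.06), the venous genes *Nr2f2* (1.16) and *Il1r1* (0.92), the lipid carrier gene *Fabp5* (2.81), and *Prdm16* (0.85) and *Foxp2* (2.94). *Nr2f2*, *Il1r1* and *Bmx* lost their call without KO2, *Il1r1* and *Ptprb* without WT2, *Cavin2*, *Gkn3*, *Prdm16*, *Foxp2*, *Hspa1a* and *Hspa1b* without KO1, and *Cavin2*, *Fosb* and *Ier2* without WT1, *Ier2* without KO2 as well.

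Genes called between genotypes in fenestrated cells also differed here: *Mgp* (2.92), *Rgs5* (1.85), *Itga4* (-1.46), *Igfbp5* (-4.27) and *Ckb* (-1.25). For *Itga4* the *Plvap*-0 rise was the larger. *Rgs5* lost its call without KO1 and *Igfbp5* without WT2. Both also lost it with DESeq2 and with 4 or more *Plvap* UMIs, and *Rgs5* without barrier-range cells. *Mgp* lost its call with 4 or more *Plvap* UMIs. Hemoglobin genes gave *Hbb-bt* (-6.95), *Hba-a1* (-6.78), *Hba-a2* (-6.39) and *Hbb-bs* (-6.42), and the erythroid gene *Alas2* gave -4.92. Only 12 fenestrated cells held 1% or more hemoglobin UMIs, and all these hemoglobin genes lost their call without such cells. *Hbb-bt* lost it with 4 or more *Plvap* UMIs as well. *Alas2* lost its call with DESeq2, with 4 or more *Plvap* UMIs and without barrier-range cells.

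Genes with few UMIs in fenestrated cells gave fitted values that depend on the prior count and bound nothing: *Cytl1* (11.44), *Nos1* (9.47), *Fbln5* (3.46) and *Fabp4* (3.24) with a higher difference, and *Mki67* (-12.74), *Egln3* (-7.41) and *2610203C22Rik* (-7.21) with a lower one. All 80 *Cytl1* UMIs came from 1 cell of KO2, and the 14 *Mki67* UMIs from 2 cells of WT2. *Cytl1*, *Nos1*, *Fbln5* and *Mki67* lost their call without KO2, and *Mki67* and *Egln3* without WT2.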

How the results depend on the processing

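The comparison of fenestrated with *Plvap*-0 ECs kept both counts within 1.5 times, and the 20 genes named for the size of their difference kept their call, under all 14 alternatives. The KO minus WT share difference ran from -0.395 to 0.278 percentage points under processing changes and from -1.49 (without WT1) to 1.65 (without WT2) with each mouse left out, so its sign was not fixed; the cause was not tested. Genes higher in *Angpt2*-KO fenestrated cells (5) numbered 2 with DESeq2, 27 with no filter, 5 to 30 with each mouse left out, 0 with 4 or more *Plvap* UMIs and 3 without hemoglobin-rich cells. Genes lower there (8) numbered 60 with no filter, 5 to 56 with each mouse left out, 0 with 4 or more *Plvap* UMIs and 4 without hemoglobin-rich cells. In *Plvap*-0 ECs, 500 higher and 252 lower became 942 and 766 with no filter, and ranged from 88 to 810 and from 68 to 564 with each mouse left out. The 61 genes with a higher interaction became 29 with DESeq2, 95 with no filter, 32 with 4 or more *Plvap* UMIs, 107 without barrier-range cells and 70 to 95 with each mouse left out. No filter tests 16089 genes in place of 9310 in fenestrated cells; for the other changes the cause was not tested. For the genes named by rule, 44 gene values under these alternatives lost their call and 112 kept it for genotype in fenestrated cells, 10 and 67 in *Plvap*-0 ECs, and 14 and 86 for the interaction, with 0 changes of sign.

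Replicate numbers were checked as a pairing over 9321 genes (Pearson 0.084, Spearman -0.085, across genes of 4 samples) and did not pair the mice, which share a number and a sex and may share an experiment. A fit with the replicate block called 17 genes higher and 21 lower in fenestrated cells and 612 and 334 in *Plvap*-0 ECs, and left the share difference at 0.0799. Of the gene lists in fenestrated cells, it called 3 arterial genes higher (1 without the block), 2 lipid genes higher, and 1 venous gene and 1 transcription factor lower (0 each without it). It also called 1 tip cell gene higher and 2 lower (0 and 1 without it). Of the fenestrated and peripheral capillary genes it called 1 higher and 1 lower (0 and 1 without it).

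With 1129281 to 2823433 UMIs per fenestrated sum against 21379062 or more per *Plvap*-0 sum, the genotype comparison tested fewer genes in fenestrated cells (9310 against 13518). How far depth set the number of calls was not tested. Cell counts of 105 to 305 let 1 cell carry a gene, as for *Mgp*, *Cytl1* and *Apln*. Each genotype had 2 mice of different sex.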
